A study of Mus musculus with 6 samples.

Results

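The 35 genes described here encode the actin cytoskeleton of mouse embryonic stem (ES) cells and the products that respond to its state through the transcription factor SRF and the co-activator YAP. They were listed by name and matched to the gene column of 1 table of 36699 rows. Of the 35, 33 had a row of their own, 31 of these were tested, and 2 rows (Flna and Srf) carried values but the status FAIL. Acta1 had no row of its own, and Lats2 was found only in a row that it shares with Xpo4, which was not used for it.

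RNA was measured in A2Lox.cre ES cells on day 3 of embryoid body differentiation. One group of 3 libraries (replicates 2, 3 and 4) had no doxycycline. The other group of 3 (replicates 1, 3 and 4) received doxycycline for 24 hours from day 2, which turns on a Flag-tagged copy of the Sp-family transcription factor Sp5. All 6 libraries came from this 1 line, which had been kept on mouse embryonic fibroblasts that were stripped away before suspension culture. The study asked which genes Sp5 regulates. An effect of the drug alone and one of the transgene cannot be told apart in these groups. No label states that each replicate was its own culture. The p-values speak only to these libraries, and the spread between them may be technical.

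Each gene had 1 value per group in FPKM (fragments counted per length of transcript and per number of mapped fragments), which the authors made from the 3 libraries and which carries no SD or n. Depth is unknown. A gene is said to have risen or fallen only where q was under 0.05 in the authors' deposited table, and every change is that of cells with doxycycline against cells without. Intervals are 95% intervals of the log2 ratio, worked back from the authors' test statistic. Sp5 itself stood at 0.769 and 126 FPKM without and with doxycycline. The ES cell markers on a list of 7 were all above 1 FPKM in both groups, with Pou5f1 at 999 and 1058 FPKM, but 5 of the 7 were called. That is 71.4% called (57.1% higher and 14.3% lower), against 27.0% of tested rows at 10 FPKM or more (8.71% and 18.3%). Nanog (46.0 to 117 FPKM), Tdgf1 (124 to 180.3), Dppa5a (1112 to 1428) and Zfp42 (21.7 to 24.9) rose, and Utf1 (314 to 119) fell. Their part in the changes below was not tested.

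Actin monomers polymerise into filaments that tropomyosins coat, myosin motors pull on, and alpha-actinins and filamins bundle and link. Free actin holds SRF co-activators of the Mkl family out of the nucleus, so that actin assembly switches on SRF target genes, many of them encoding actin and its partners. SRF binds a short element named the CArG box. YAP, which the Hippo kinases Lats1 and Lats2 keep out of the nucleus, acts through TEAD factors on genes such as Ctgf, Cyr61 and Ankrd1, and is likewise responsive to tension and cell shape.

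Most of these genes fell. By the authors' deposited table, 21 of the 31 tested fell, 3 rose and 7 had no call, which is 77.4% called against 23.2% of all 18537 tested rows. For falls alone the share was 67.7% against 12.7%, and for rises 9.68% against 10.5%. Since 25 of the 31 reached 10 FPKM in the higher group, tested rows at that level were counted too, and there 27% were called, 18.3% as falls and 8.71% as rises, against 18 falls and 2 rises among the 25. The median log2 ratio of the 31 was -0.44, against -0.03 over all tested rows with both values above 0 and -0.06 over those at 10 FPKM or more. Most falls were modest in size: 5 were 2-fold or more, 4 lay between 1.5-fold and 2-fold, and 12 were under 1.5-fold. Rows called with a 2-fold change or more made up 5.76% of those tested, 2.22% lower and 3.54% higher, and 2 genes of the set, Actc1 and Actg2, rose by that much. From 1.5-fold, 9 of the 31 fell and 2 rose, against 5.22% and 6.03% of tested rows (11.2% in all). With q under 0.01, 19 fell and 3 rose, against 9.39% and 7.71% (17.1% in all). At 1 FPKM or more, 20 of 29 fell and 2 rose, against 16.8% and 11.5% (28.3% in all), and with q adjusted over those rows alone the counts were again 20 and 2, against 17.5% and 11.9% (29.4% in all). Among 22 tested genes whose rows share no locus with another, 17 fell and 1 rose, against 14.8% and 12.3% of such rows (27.1% in all). In a bulk sample, fewer cells of a type and less RNA per cell cannot be told apart.

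**Figure D1:**
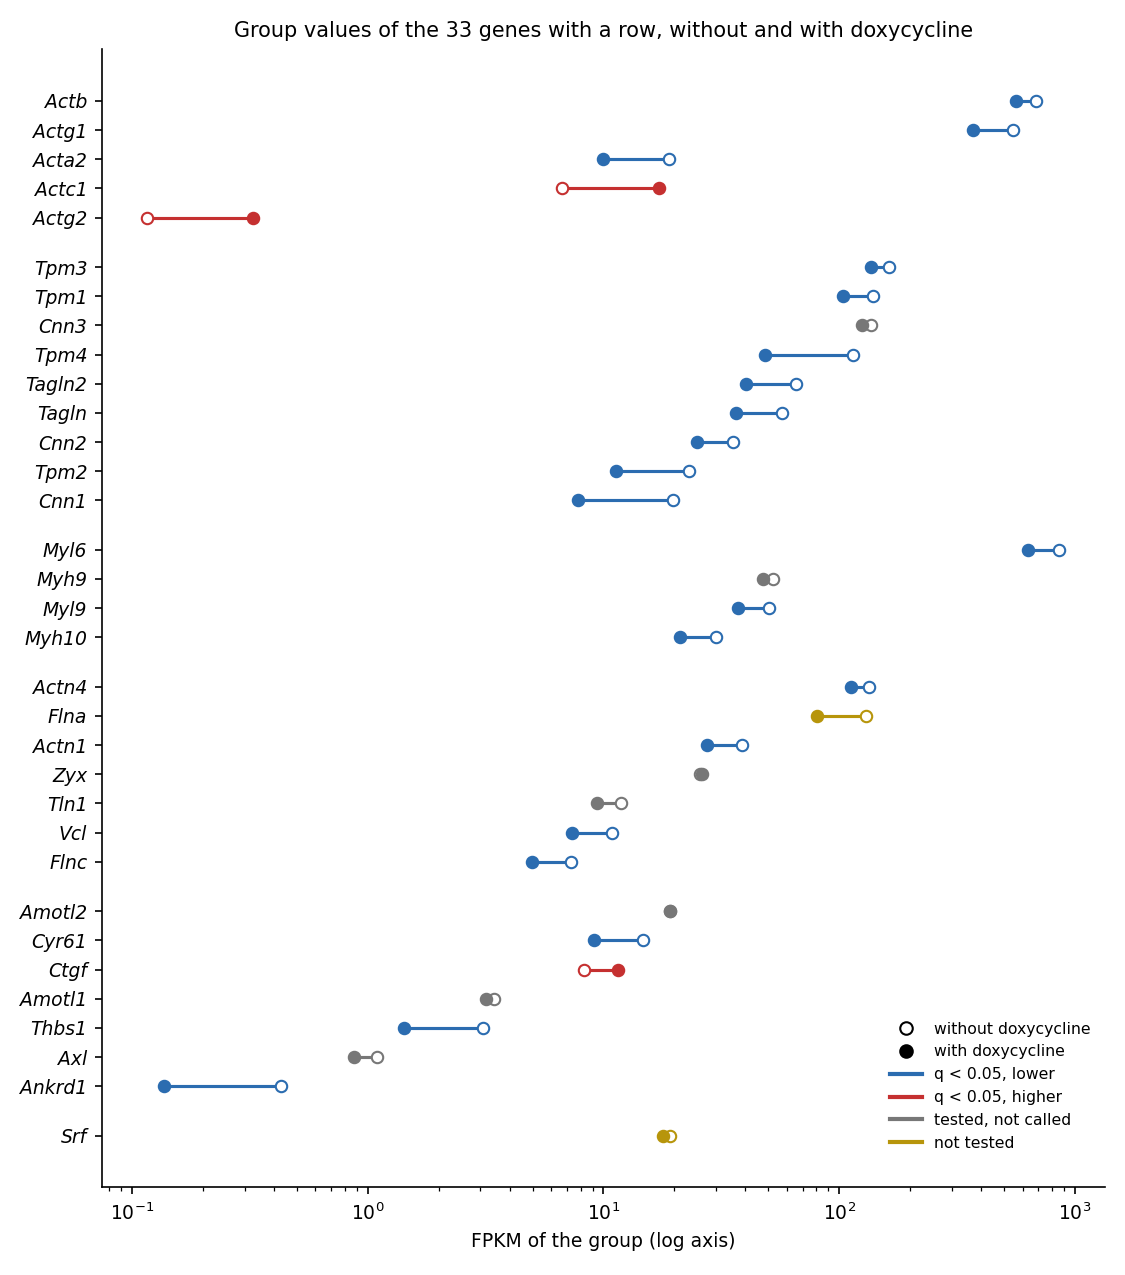
FPKM of each of the 33 genes with a row, on a log axis, without doxycycline (open circles) and with it (filled circles), grouped by role and coloured by the call in the authors' deposited table. The circles stand for 1 group value each and have no error; 21 genes are called to the left, and Actc1, Actg2 and Ctgf are called to the right.

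Promoter windows from RefSeq (build GRCm38.p6, 250 bases before to 50 after each annotated start) were matched to 30 of the 35 genes. Actb, Actg2, Tagln, Ctgf and Thbs1 had no entry. A CArG box, searched on both strands, stood in the windows of 8 of the 30 (26.7%), against 1.81% of 27025 genes in the table and 1.52% of the 8892 matched genes that were tested at 1 FPKM or more. At that level, 6 tested genes of the set held the box and 19 did not. The windows of 7 genes with a row are shown because a shared SRF element is what several of these genes are known for. Capitals mark the CArG box, all are upstream of the start, and each reads 5′ to 3′ along the gene.
Actg1 (chr11:120348551-120348610, minus strand): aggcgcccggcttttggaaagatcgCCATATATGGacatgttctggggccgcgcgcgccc
Actc1 (chr2:114052888-114052947, minus strand): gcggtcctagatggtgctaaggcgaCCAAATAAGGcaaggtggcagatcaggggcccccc
Cnn2 (chr10:79988519-79988578, plus strand): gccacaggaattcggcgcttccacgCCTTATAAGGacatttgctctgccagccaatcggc
Myl9 (chr2:156775278-156775337, plus strand): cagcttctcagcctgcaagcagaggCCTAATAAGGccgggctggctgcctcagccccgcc
Myl6 (chr10:128493025-128493084, minus strand): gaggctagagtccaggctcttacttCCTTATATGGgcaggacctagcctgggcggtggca
Vcl (chr14:20929148-20929205, plus strand): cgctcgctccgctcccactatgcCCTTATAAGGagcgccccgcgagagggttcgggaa
Srf (chr17:46556190-46556269, minus strand): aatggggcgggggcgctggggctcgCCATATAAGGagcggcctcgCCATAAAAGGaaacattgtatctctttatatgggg

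Srf carries a pair of such boxes in its own promoter, and the other 6 genes 1 each. Of those 6, which were all tested, 5 fell (Actg1, Cnn2, Myl9, Myl6 and Vcl) and Actc1 rose, so the presence of the letters did not go with 1 direction. Among the 20 tested genes whose windows lacked the box, 13 fell and none rose (14 and 0 at an unadjusted p under 0.05 by the authors' Cuffdiff test), with a median log2 ratio of -0.46 against -0.47 for the 6 with it. Over all matched tested genes, 20.2% with a CArG box fell and 15.0% rose, against 14.4% and 11.6% without it. Cnn1, Tpm4, Tpm2 and Ankrd1, which were among the 5 falls of 2-fold or more, had no CArG box in these windows. A missing match says only that the letters are not in these 300 bases.

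The TEAD motif was searched as GGAATG with its reverse complement CATTCC. It stood in the windows of 14 of the 30 genes (46.7%), against 16.6% of all genes in the table and 14.2% of the matched genes tested at 1 FPKM or more. The 30 include genes that were untested or under that level. At that level, 10 tested genes of the set held the motif and 15 did not. Windows of 3 genes of the YAP-TEAD group and of a pair of actin-related genes are shown, with the motif in capitals, because they hold genes that fell by over 1.5-fold (Acta2, Tagln2, Cyr61 and Ankrd1) and 1 gene whose level was nearly equal in the groups (Amotl2).
Acta2 (chr19:34255489-34255544, minus strand): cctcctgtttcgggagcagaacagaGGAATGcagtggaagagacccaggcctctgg
Tagln2 (chr1:172500103-172500196, plus strand): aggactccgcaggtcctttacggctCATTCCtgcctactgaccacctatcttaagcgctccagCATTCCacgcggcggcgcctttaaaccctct
Cyr61 (chr3:145650058-145650113, minus strand): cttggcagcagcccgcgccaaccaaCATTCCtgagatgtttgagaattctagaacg
Ankrd1 (chr19:36119937-36120079, minus strand): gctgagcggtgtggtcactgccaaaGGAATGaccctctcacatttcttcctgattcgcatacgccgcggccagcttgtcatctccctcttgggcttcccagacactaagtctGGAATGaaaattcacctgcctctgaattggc
Amotl2 (chr9:102717714-102717769, plus strand): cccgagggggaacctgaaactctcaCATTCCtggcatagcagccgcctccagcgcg

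Ankrd1 and Tagln2 hold the motif at 2 positions each. Of 11 tested genes with it, 9 fell and none rose (9 and 0 at an unadjusted p under 0.05 by the Cuffdiff test), and of 15 without it, 9 fell and 1 rose. Over all matched tested genes, 15.9% with the TEAD motif fell and 12.0% rose, against 14.3% and 11.6% without it. The GC box that Sp factors bind, searched as GGGCGG with CCGCCC, was present in 80.0% of the windows of these genes and in 70.9% of those of the matched genes tested at 1 FPKM or more. Among genes with a row, Vcl was the one whose window held all 3 kinds of match. A match is a description of the sequence and not a measured site.

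**Figure D2:**
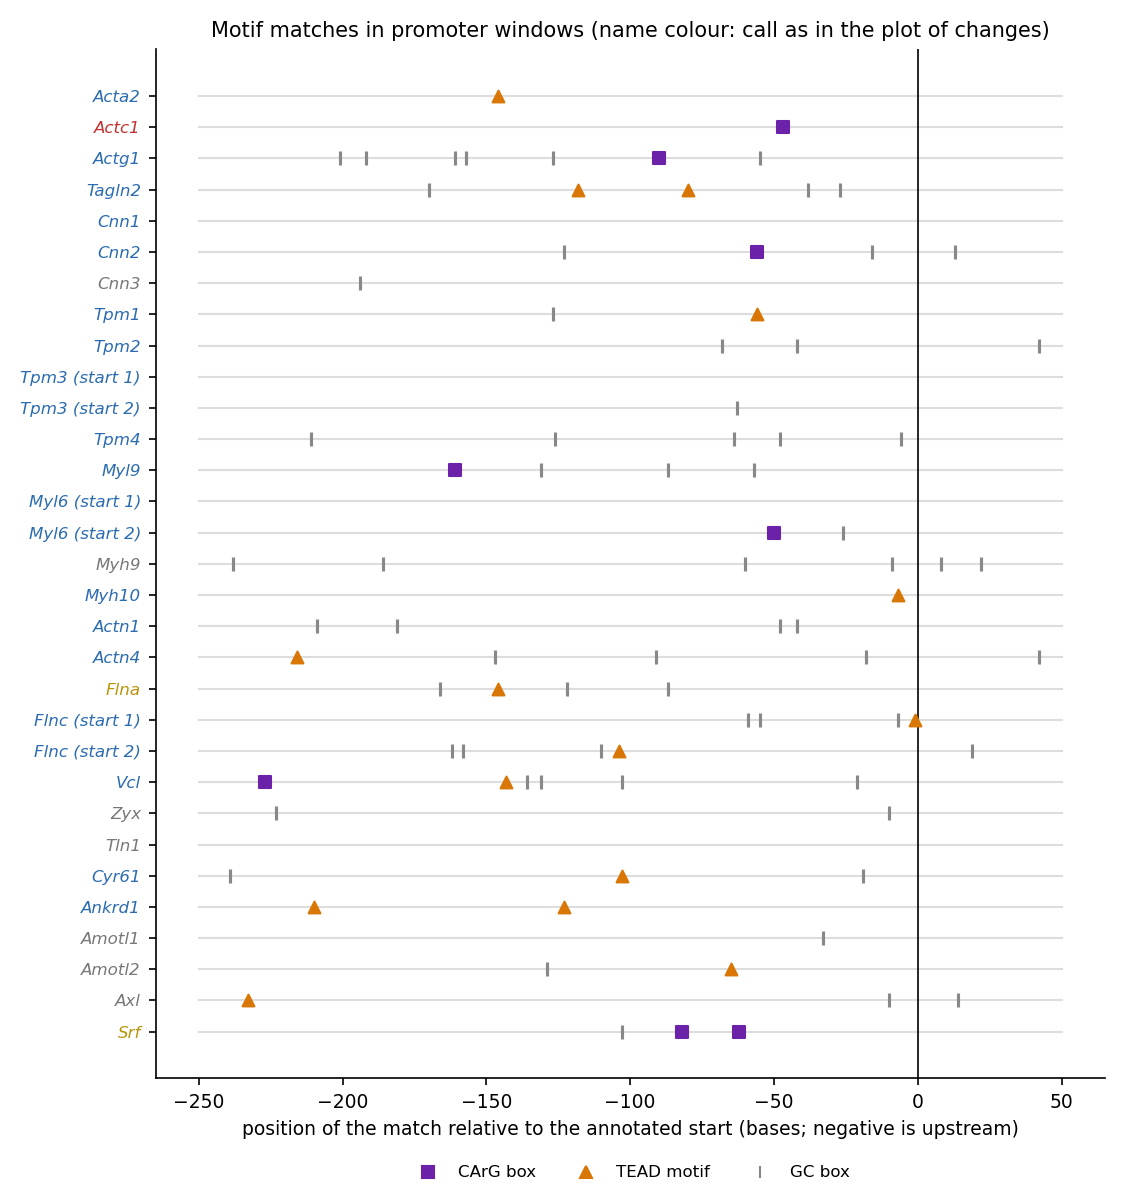
Positions of CArG boxes (squares), TEAD motifs (triangles) and GC boxes (ticks) in the promoter windows of the genes with a row, in bases from the annotated start, with negative positions upstream and each mark at the first base of the match. Gene names are coloured by call; CArG boxes are seen in Actc1, Actg1, Cnn2, Myl9, Myl6, Vcl and Srf.

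The actin genes did not all move in 1 direction. Actb and Actg1, the cytoplasmic actins, made up 54.5% and 43.4% of the summed actin FPKM without doxycycline. Actb (chromosome 5, 143664794 to 143668433 of mm9) went from 685 to 564 FPKM and fell by 0.28 on the log2 scale (interval -0.45 to -0.11; q = 0.00583 in the authors' deposited table). Actg1 (chromosome 11, 120207004 to 120209856), whose CArG box is shown above, went from 545 to 370.4 FPKM and fell by 0.56 (-0.75 to -0.37; q = 1.58e-07 in the authors' deposited table). Acta2, the smooth muscle alpha-actin, was at 18.9 FPKM without doxycycline and 9.92 FPKM with it, a 1.90-fold fall (log2 -0.93, -1.08 to -0.77). Actc1, the cardiac alpha-actin, went the other way, from 6.64 to 17.2 FPKM, a 2.59-fold rise (log2 1.37, 1.18 to 1.56). For both, q was listed as 0 in the authors' deposited table.

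Thus Acta2 was the more abundant of this pair without doxycycline and Actc1 with it. Actg2, the enteric smooth muscle actin, rose from 0.116 to 0.326 FPKM, below 1 FPKM in both groups and with a wide interval (log2 0.60 to 2.38; q = 0.00625 in the authors' deposited table). The 5 actins summed to 1256 FPKM without and 962 FPKM with doxycycline, a 1.31-fold lower sum. Coding sequences of the 6 actin genes were 81.5% to 88.7% identical in GENCODE vM21. At 50 bases, 45.6% of the words of Actg1 transcripts and 12.2% of those of Actb also occurred in another gene, the most in Gm12715 for Actg1 and in Lrrc58 for Actb. The figures for Acta2, Actc1 and Actg2 were 0.326%, 0% and 0%. How the authors placed reads with several matches is not given in the sources used here, so the values of Actg1 and Actb are uncertain in a way that those of the other 3 are not.

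Because Actc1 is a gene of heart and skeletal muscle, markers of muscle were read beside it. Of 12 cardiac and skeletal muscle markers, 8 were under 1 FPKM in both groups, none was at 0 in both, and the list summed to 13.9 FPKM without and 12.0 FPKM with doxycycline. Among the 10 tested, Myl7, Myh6 and Myh7 fell and Nkx2-5 rose. The called share was 40% (30% lower and 10% higher), against 23.2% of all tested rows (12.7% and 10.5%). Myl7, the most abundant marker on the list, went from 7.83 to 4.77 FPKM, opposite to Actc1. Myl4 (1.17 and 1.98 FPKM) and Myl2 (0.384 and 0.682 FPKM) were higher with doxycycline without a call. At an unadjusted p under 0.05 by the authors' Cuffdiff test, 3 markers were lower and 3 higher. The median of the list was 0.308 FPKM without and 0.409 FPKM with doxycycline, so the markers did not share 1 direction. Gjd2, which shares the deposited locus of Actc1, stood at 0.182 and 0.150 FPKM and was not called.

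Among the proteins that bind along actin filaments, 8 of 9 fell and none rose (9 and 0 at an unadjusted p under 0.05 by the authors' Cuffdiff test). This is 88.9% as falls, against 12.7% of all tested rows. The transgelins were alike: Tagln went from 56.9 to 36.5 FPKM (1.56-fold lower) and Tagln2 from 65.4 to 40.1 FPKM (1.63-fold lower). Their log2 changes differed by 0.06, with an interval of -0.16 to 0.28. The calponins were graded. Cnn1, the smooth muscle calponin, fell from 19.6 to 7.78 FPKM (2.52-fold; log2 -1.34, -1.48 to -1.19; chromosome 9, 21903725 to 21914074). Cnn2 fell from 35.3 to 25.05 FPKM (1.41-fold). Cnn3, which alone gave 71.3% of the summed calponin FPKM without doxycycline, was at 137 and 125 FPKM and was not called (q = 0.144 in the authors' deposited table; log2 interval -0.25 to -0.00374). Differences in log2 change were -1.21 between Cnn1 and Cnn3 (-1.40 to -1.02) and -0.37 between Cnn2 and Cnn3 (-0.56 to -0.18).

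Tropomyosins, which stiffen the filament and control the access of myosin to it, all fell but by unequal amounts. Tpm4 (chromosome 8, 74658874 to 74684754) went from 115 to 48.6 FPKM, a 2.36-fold fall with a log2 ratio of -1.24 (-1.37 to -1.11). Tpm2 went from 23.2 to 11.3 FPKM (2.04-fold), Tpm1 from 139 to 103 FPKM (1.35-fold) and Tpm3 from 162 to 137 FPKM (1.19-fold; q = 0.0376 in the authors' deposited table). The change of Tpm4 exceeded that of Tpm3 by 0.99 on the log2 scale (0.77 to 1.22) and that of Tpm1 by 0.81 (0.62 to 1.00). Tpm2 and Tpm4 differed by 0.21 (-0.02 to 0.44), which the interval does not separate from 0. Tpm4 thereby went from 26.1% to 16.2% of the summed tropomyosin FPKM, and Tpm3 from 36.9% to 45.6%. By the size of the authors' statistic, Tpm4 stood 14th and Cnn1 17th among 2071 falls at 1 FPKM or more. By fold change, Tpm4 stood 124th and Cnn1 94th among the same falls.

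**Figure D3:**
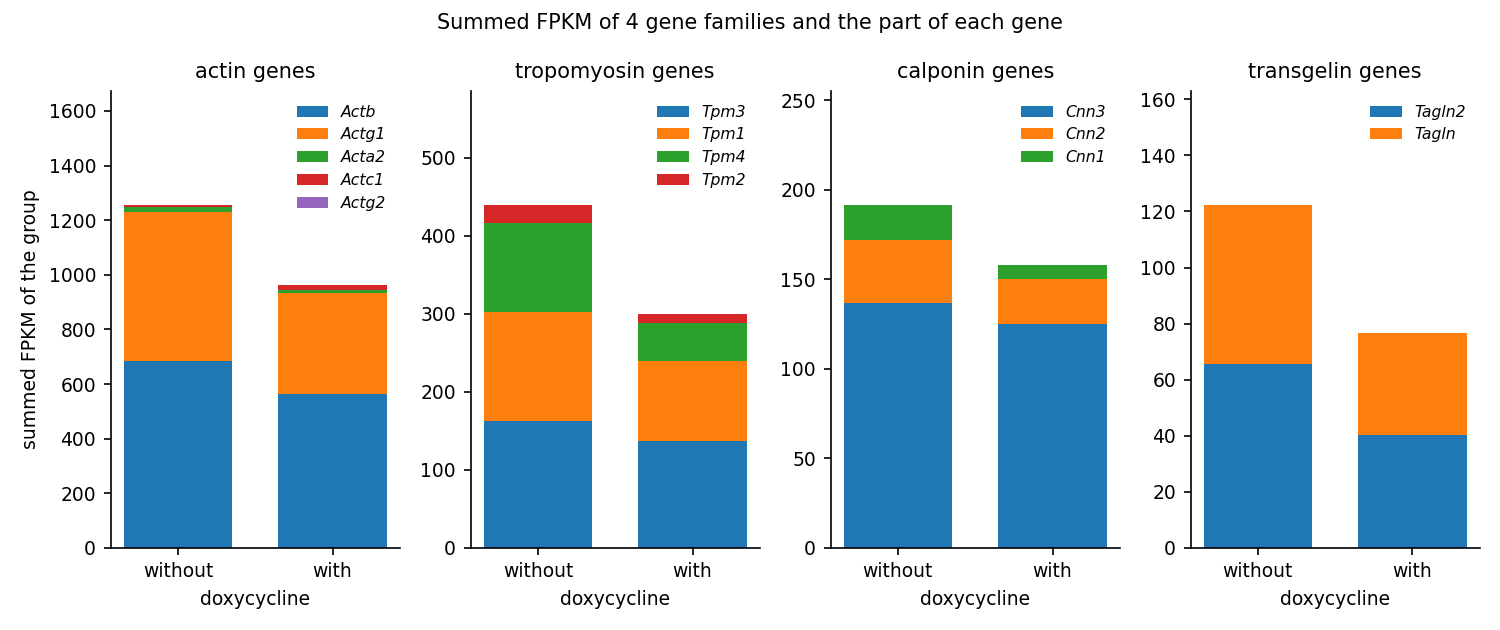
Summed FPKM of the actin, tropomyosin, calponin and transgelin genes without and with doxycycline, each bar starting at 0 and divided by gene; each panel has its own axis, and the group values carry no error. The tropomyosin sum goes from 439.7 to 299.97 FPKM with Tpm4 losing the most of the 4, while Cnn3 keeps most of the calponin sum.

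Some of these rows have reads that other genes could take. Of the words of Tagln transcripts 47.6% also occurred in another gene, of Tpm3 40.0%, of Cnn3 26.0% and of Tpm4 16.1%, against 0% for Cnn1, Cnn2, Tpm1 and Tpm2. Tpm3 is also a call that is lost under other settings: with all changes recentred on the median of tested rows at 1 FPKM or more (a shift of -0.04), its adjusted p was 0.109.

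Non-muscle myosin II is built of heavy chains, encoded by Myh9 and Myh10, and of light chains. Myl6, the essential light chain, had the highest level of the 33 genes and fell from 858 to 634 FPKM (1.35-fold; log2 -0.43, -0.56 to -0.30). Of the 50-base words of Myl6 transcripts, 16.7% also occurred in another gene, the most in Gm5526. Myl9, a regulatory light chain, fell from 50.3 to 37.1 FPKM (1.35-fold; log2 -0.44, -0.60 to -0.28). Both have a CArG box in the windows shown. Myh10 fell from 30.1 to 21.1 FPKM (1.42-fold), whereas Myh9 was at 52.4 and 47.5 FPKM and was not called (q = 0.223 in the authors' deposited table; log2 -0.14, -0.30 to 0.02). The change of Myh9 lay above that of Myh10 by 0.37 (0.12 to 0.61).

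Crosslinkers and adhesion proteins showed 4 falls and no rise among 6 tested (4 and 0 at an unadjusted p under 0.05 by the Cuffdiff test). Falls made up 66.7% of them, against 12.7% of all tested rows. Actn1 and Actn4 encode the non-muscle alpha-actinins. Actn1 fell from 38.5 to 27.5 FPKM (1.40-fold), and Actn4 from 134 to 112 FPKM (1.19-fold; q = 0.0179 in the authors' deposited table), a call that was lost with recentring (adjusted p = 0.0634). Flnc, the muscle-enriched filamin, fell from 7.25 to 4.96 FPKM (1.46-fold). Flna, the filamin of most cells, was listed at 130.1 and 80.6 FPKM but was not tested. Vcl, which encodes vinculin and links actin to adhesions, fell from 10.9 to 7.34 FPKM (1.48-fold; log2 -0.57, -0.81 to -0.32). Its row shares a locus with Ap3m1, whose transcripts held 38.2% of the words of Vcl and which stood at 35.4 and 31.3 FPKM without a call. Zyx (zyxin) was at 25.7 and 26.3 FPKM, with an interval that allows log2 changes from -0.15 to 0.21. Tln1 (talin) was at 11.9 and 9.37 FPKM, and its interval of -0.97 to 0.28 spans the falls of the other adhesion genes.

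**Figure D4:**
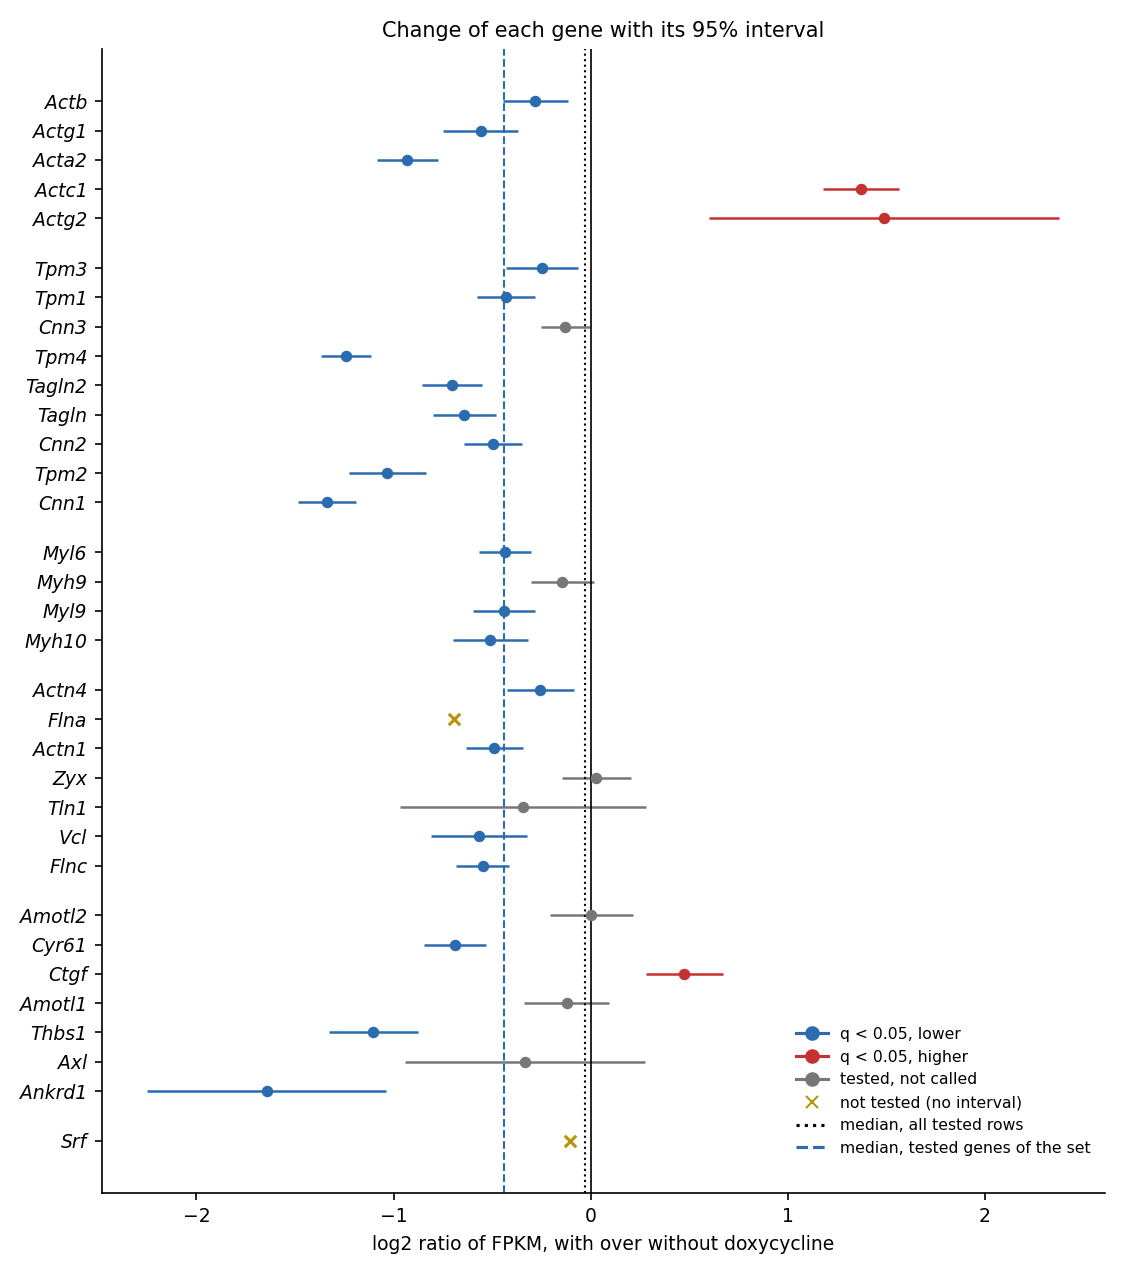
Log2 ratio of FPKM with over without doxycycline for each gene, with its 95% interval from the authors' statistic; crosses mark the 2 untested genes. The dotted line is the median of all tested rows (-0.03) and the dashed line that of the 31 tested genes (-0.44); Cnn1, Tpm4 and Ankrd1 lie farthest left and Actc1 and Actg2 farthest right.

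Genes that respond to YAP and TEAD did not move as 1 block: of 7 tested, 3 fell, 1 rose and 3 were not called. The called share was 57.1%, against 23.2% of all tested rows. Cyr61 and Ctgf encode related secreted matrix proteins and are standard readouts of YAP. Cyr61 fell from 14.7 to 9.15 FPKM (1.61-fold; log2 -0.69, -0.84 to -0.53), while Ctgf rose from 8.28 to 11.5 FPKM (1.39-fold; log2 0.48, 0.28 to 0.67; q = 1.84e-05 in the authors' deposited table). The Ctgf row (chromosome 10, 24269247 to 24318489) shares its locus with Gm15270, whose transcripts held 17.2% of the words of Ctgf and which stood at 0.168 and 0.366 FPKM. Thbs1, which encodes the matrix protein thrombospondin-1, fell from 3.07 to 1.43 FPKM (2.15-fold; log2 -1.10, -1.33 to -0.88). Ankrd1, which encodes a stretch-responsive ankyrin repeat protein of muscle, was under 1 FPKM in both groups (0.428 and 0.137 FPKM) and 3.12-fold lower with doxycycline (log2 -2.25 to -1.04).

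The angiomotin-like genes, whose products bind YAP and hold it at junctions, were not called. Amotl2, which carries a TEAD motif as shown, stood at 19.1 and 19.2 FPKM, and its interval of -0.21 to 0.22 leaves out a fall as large as that of Cyr61. Amotl1 was at 3.44 and 3.16 FPKM, with an interval of -0.34 to 0.09. Axl, a receptor tyrosine kinase, was at 1.10 and 0.872 FPKM (-0.94 to 0.27). The row that names Lats2 together with Xpo4 was not called either (11.8 and 12.9 FPKM).

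Srf, the factor itself, was listed at 19.2 and 17.8 FPKM without a test. Its deposited locus held 19 other rows, none of which was tested either. Of its co-activators, neither Mkl1 (5.48 and 4.74 FPKM; log2 -0.21 with SE 0.247) nor Mkl2 (1.96 and 2.06 FPKM; log2 0.07 with SE 0.123) was called.

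In the Hippo list, 3 of 20 tested genes fell, 5 rose and 12 had no call (40.0% called, against 28.3% of tested rows at 1 FPKM or more). Yap1 was at 43.6 and 38.7 FPKM and was not called (log2 -0.17 with SE 0.0717; q = 0.0702 in the authors' deposited table). Wwtr1, which encodes the YAP relative TAZ, rose from 5.51 to 7.86 FPKM (1.43-fold), Tead1 from 7.44 to 11.2 FPKM (log2 0.59) and Vgll4, a competitor of YAP for TEAD, from 2.27 to 3.53 FPKM (1.55-fold). Tead2, at 117 FPKM in both groups, was the most abundant of the 4 TEAD genes and was not called. Tead3 (4.83 and 4.51 FPKM) and Tead4 (2.29 and 1.75 FPKM) were not called either. Limd1, a LIM-domain protein that binds the Lats kinases, fell from 7.85 to 3.05 FPKM (2.57-fold). The scaffold gene Sav1 rose 1.25-fold and Frmd6 fell 1.31-fold.

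Among other genes of adhesion and actin organisation, 10 of 34 tested fell, 1 rose and 23 had no call. The called share of 32.4% lay near the 28.3% of tested rows at 1 FPKM or more, with 29.4% against 16.8% for falls and 2.94% against 11.5% for rises. The median log2 ratio was -0.10, against -0.04 over those rows. Pdlim7 fell from 43.0 to 24.5 FPKM (1.76-fold), Msn (moesin, which ties actin to the membrane) from 47.3 to 28.9 FPKM (1.64-fold), Fhl1 1.58-fold, Fermt2 (kindlin-2, an integrin activator) 1.54-fold and the capping protein gene Capg 1.45-fold. Actn3, a muscle alpha-actinin, rose from 3.63 to 5.34 FPKM (1.47-fold). Of 8 immediate early genes that SRF drives with ternary complex factors, 2 fell, 1 rose and 5 were not called. The called share of 37.5% compares with 23.2% of all tested rows, and 4 of the 8 were under 1 FPKM in both groups. Egr1 fell from 4.08 to 1.43 FPKM (2.85-fold) and Mcl1 1.25-fold. Fos, named after its values were seen, rose from 0.527 to 0.761 FPKM.

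**Figure D5:**
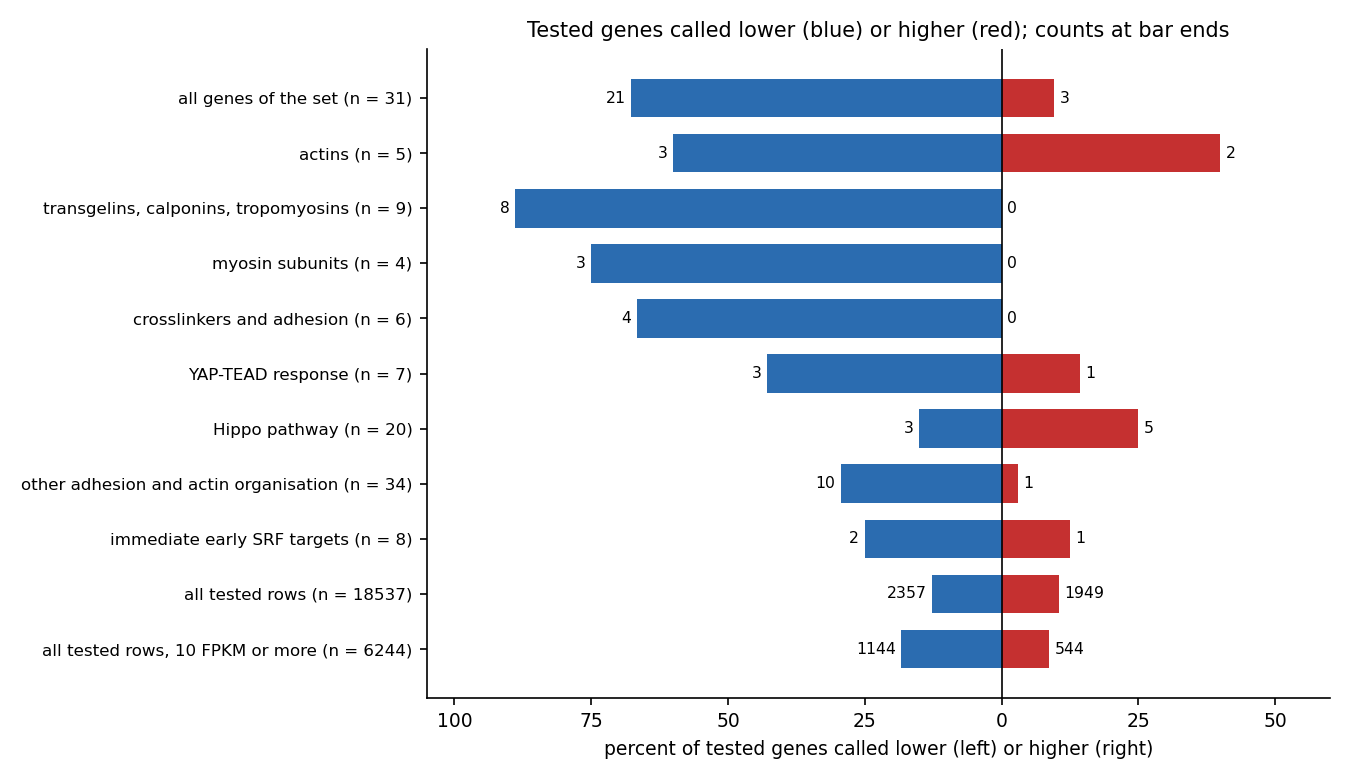
Percent of tested genes called lower (bars to the left) or higher (bars to the right) in the authors' deposited table, with the number of genes at each bar end and the number tested after each name. The transgelin, calponin and tropomyosin group has 8 of 9 genes to the left, while the Hippo list has 3 of 20 to the left and 5 to the right.

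Markers of other cells that express these genes were read beside the falls. Of 13 markers of the fibroblast feeders, 6 were under 1 FPKM in both groups and none at 0, and the list summed to 20.2 and 20.6 FPKM. Among its 11 tested genes, Thy1, Pdgfrb and Dcn fell and Col1a1 and Prrx1 rose. That is 45.5% called (27.3% lower and 18.2% higher), against 23.2% of all tested rows (12.7% and 10.5%). Of 5 smooth muscle markers, Myh11, Lmod1 and Synpo2 were under 1 FPKM in both groups, 1 (Des) rose, 4 were at a lower level without a call, and the list summed to 16.8 and 17.6 FPKM. The called share of the smooth muscle list was 20%, near the 23.2% of all tested rows. In each of these lists, which group had the higher sum depended on 1 gene. Without Col1a1 the feeder list summed to 19.1 and 16.2 FPKM, and without Des the smooth muscle list summed to 13.7 and 12.1 FPKM. The visceral and parietal endoderm list summed to 352 and 302 FPKM, a 1.16-fold lower sum. In that list 4 of 10 fell (Afp, Amn, Gata6 and Sparc) and none rose (7 and 0 at an unadjusted p under 0.05 by the Cuffdiff test). The falls made up 40.0%, against 12.7% of all tested rows. The part of feeder, smooth muscle or endoderm cells in the falls was not tested.

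Over 22 pairs of genes of 1 family, the interval of the difference in log2 change left out 0 in 18 and held it in 4. The 4 were Actc1 with Actg2, Tpm1 with Tpm3, Tpm2 with Tpm4, and Tagln with Tagln2. These intervals treat the errors of the genes as independent and were not adjusted for their number. With only the 16 tested genes that share no locus with another row and no more than 5% of their 50-base words with another gene, 12 fell and 1 rose. No share over all rows was computed for this pair of filters. Of all tested rows that share no locus, 14.8% fell and 12.3% rose.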

How the data were processed

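Poly(A)-selected RNA of 6 libraries, 3 per group, was sequenced, per the labels' protocols. The submitters' processing notes name build mm9, Cuffdiff, Cufflinks 2.0.2, TopHat2 2.0.8, Picard and Bowtie. The annotation is not given in the sources used here, nor are library scaling and read length. The authors deposited 1 FPKM value per gene and group, with log2 ratios, test statistics, p-values and q-values of their own Cuffdiff test, per the file headers, so no refit was possible. The deposited q-values were checked: they equal Benjamini-Hochberg values over the 18537 tested rows to within 1.79e-06. The deposited p-values equalled two-sided normal p-values of the statistic to within 2.84e-06. The standard error was taken as the log2 ratio divided by that statistic, which assumes that the statistic is the log ratio over its standard error; the method was tested on simulated data. Starts were read as 0-based, since 11723 of 28028 gene lengths then equalled a GENCODE vM21 gene length, against 319 otherwise.

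Ratios have no pseudocount. Python 3.11.15, numpy 2.4.6, pandas 2.3.3, scipy 1.17.1, Biopython 1.88 and matplotlib 3.10.9 were used. Words of 50 bases in GENCODE vM21 transcripts were compared on both strands, and coding sequences (longest open reading frame) aligned globally. The genes and lists were chosen with earlier results of these data known. All tested genes of the set are named, and 1 list is not reported here. Of each other pathway list, up to 6 called genes with the largest log2 ratio at 1 FPKM or more are named, with Mkl1, Mkl2, Yap1, Wwtr1 and Tead1 to Tead4 whatever their result. Cell type markers were named after their values were seen. Alternatives were a q of 0.01, minimum folds of 1.5 and 2, a level of 1 FPKM, pseudocounts of 1 and 0.1 FPKM, recentring, adjustment over rows at 1 FPKM or more, and leaving out actins or shared loci. Low depth cannot be judged, since the table holds no counts.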

Additional observations from a re-analysis of the deposited data

How the results depend on the processing

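The falls of the set kept to 17 to 20 genes under a q of 0.01, a level of 1 FPKM, adjustment over rows at that level, recentring, and without actins or shared loci. They numbered 9 of 31 with a minimum fold of 1.5 (background 5.22%) and 5 with a minimum fold of 2 (2.22%), and 12 of 16 without genes that share a locus or over 5% of their words. No background share was computed for the filter that left those 16. Rises numbered 1 without shared loci, 1 without actins and 1 in those 16, fewer genes being tested in each. In the other lists, rises went to 3 in the Hippo list at a q of 0.01. In the immediate early list they went to 0 at that q and at 1 FPKM or more, where 4 genes were tested. Over all 8 genes of the immediate early list, 3 were higher at an unadjusted p under 0.05 by the authors' Cuffdiff test. The median log2 ratio of the set lay between -0.44 and -0.39 under every pseudocount, level and scaling tried. Actn4 and Tpm3 were not called at a q of 0.01 or with recentring; the other 29 tested genes kept direction and call under those. On the log2(FPKM + 1) scale, which has no test of its own, all 31 kept direction, but low genes moved towards 0: Ankrd1 to -0.33, Actg2 to 0.25 and Thbs1 to -0.74, and of the 5 falls of 2-fold or more only Cnn1 (-1.23) and Tpm4 (-1.22) remained so. Settings for the counts under recentring, for the 16 genes and for the other lists were chosen after seeing the data. No paired analysis was possible because the table holds 1 value per group and no library values, and for the same reason no replicate could be left out.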

Other observations

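Beyond this set, genes with a CArG box in the promoter window were counted among the matched genes tested at 1 FPKM or more, as a description chosen after seeing the data. Of 135 such genes, 35 fell (25.9%) and 22 rose (16.3%) in the authors' deposited table, against 17.3% and 11.6% of 8757 without the box. With the genes of the set left out, 30 of 129 fell (23.3%) and 21 rose (16.3%). The median log2 ratio was -0.08 with the box and -0.04 without it. For the TEAD motif the shares were 19.4% lower and 11.9% higher of 1262 genes with it, and 17.1% and 11.6% of 7630 without it. For the GC box they were 18.5% lower and 11.8% higher of 6306 genes with it, and 14.9% and 11.4% of 2586 without it.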
